A study of Mus musculus with 12 samples.

Results

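The genes described here encode the proteins of the cytosolic ribosome, together with gene copies whose symbols follow the same pattern. They were chosen by symbol alone: rows of the deposited log2 value table were kept where the platform annotation gives a symbol made of Rpl, Rps or Rplp, a number and at most a short letter suffix. Symbols starting with Rps6k, which are kinases, were left out. The rule found 62 genes of 19505 measured genes, each with 1 row, of which 40 carried Rpl or Rplp symbols (large subunit) and 22 carried Rps symbols (small subunit).

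The study compared regulatory T cells, a class of CD4 lymphocyte that holds immune responses in check, from 6 NOD mice and 6 mice labelled NOD.Drak2-/-. NOD is an inbred mouse strain that develops autoimmune diabetes without any treatment. All mice were female and 4 to 8 weeks old. Both groups thus share the NOD background, and the genotype is the single difference the labels name between them. Drak2 is the kinase encoded by Stk17b, known to dampen signals from the T cell receptor. The cells were sorted from lymph nodes as CD4+, CD8-, CD25+ and low for CD45RB, although the antibodies listed for the sort bind CD45RB, CD8 and CD4, with none to CD25. Each of the 12 arrays holds the RNA of 1 mouse, with NOD arrays numbered 1 to 6 and NOD.Drak2-/- arrays numbered 1 to 5 and then 7.

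The cytosolic ribosome, built of ribosomal RNA and proteins, translates messenger RNA. The small subunit reads the message, and the large subunit joins the amino acids and passes the growing chain through its exit tunnel. Most messenger RNAs for these proteins start with a C followed by a run of pyrimidines, the 5′ terminal oligopyrimidine (TOP) tract, through which mTORC1 signalling controls their translation. T cells raise ribosome production when they leave rest and begin to grow and divide. These are background facts and not results of the arrays.

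Of 80 standard mouse genes for ribosomal proteins, 53 were among the 62. Another 3, Rpsa, Fau and Rps3a1, were measured but have symbols outside the pattern. The other 24, among them Rplp2, Rps2, Rps3, Rps27 and Rps27a, had no row named here and were not analysed here. The remaining 9 of the 62 were Rpl3l, Rpl7l1, Rpl10l, Rpl22l1, Rpl32l, Rpl36al, Rpl39l, Rps4l and Rps27l, mostly paralogs of a standard gene. Many ribosomal protein genes have processed pseudogenes that are nearly identical to the gene. Probe positions were not at hand, so signal shared with such copies or with a paralog was not tested.

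The start regions of several of these genes are shown because the pyrimidine tract is the sequence feature the family is known for. Each line gives 30 bases around the annotated start, 15 on either side, from RefSeq on assembly GRCm38.p6 and read 5′ to 3′ on the strand of the gene. Capitals mark the longest run of C and T where it reached 5 bases, wherever it lay in the 30 bases. Several marked runs, such as those of Rpl4 and Rpl36a, lie away from the annotated start. A marked run is thus not shown to be a TOP tract, and a window without one is not shown to lack it.
Rpl4, chr9:64173372-64173401, plus strand: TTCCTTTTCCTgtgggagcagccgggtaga
Rpl6, chr5:121204486-121204515, plus strand: tggtcaCCTCCCgtcattgcttatagaccg
Rpl36a, chrX:134585639-134585668, plus strand: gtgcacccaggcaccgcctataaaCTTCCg
Rpl10a, chr17:28328456-28328485, plus strand: gtggcgCCCCCCCagcggccgcaaactgca
Rpl22, chr4:152324421-152324450, plus strand: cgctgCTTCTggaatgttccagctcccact
Rps10, chr17:27635230-27635259, minus strand: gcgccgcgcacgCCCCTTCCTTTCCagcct
Rpl35, chr2:39005117-39005146, minus strand: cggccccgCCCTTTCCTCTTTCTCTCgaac
Rps6, chr4:86857353-86857382, minus strand: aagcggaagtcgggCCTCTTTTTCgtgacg
Rps4x, chrX:102189377-102189406, minus strand: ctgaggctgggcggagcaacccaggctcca
Rps27l, chr9:66946071-66946100, plus strand: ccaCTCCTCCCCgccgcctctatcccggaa

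Rpl4, Rpl6 and Rpl36a are shown because they had the lowest permutation p-values between genotypes, and Rpl10a, Rpl22 and Rps10 because they varied together with Rpl6 from array to array. Rpl35 was among the steadiest genes, with a run of 18 pyrimidines. Rps4x showed no run of 5, while Rps27l, a paralog of Rps27, had a run of 9. Rps27l, Rpl10a and Rpl22 each have another RefSeq start, not shown, whose longest run was 4. RefSeq windows were found for 49 of the 62 genes, 60 windows in all, and 13 genes had none. A C followed by further pyrimidines, 5 or more letters in all, was present on the gene's strand in 34 of the 60 windows (56.67%), against 36.37% of all 32851 windows in the table. On the opposite strand the shares were 23.33% and 40.85%. The letters CCGGAAG, the core bound by ETS factors, were present on either strand (CTTCCGG on the other) of 20 of the 60 longer windows of 300 bases (33.33%), against 8.858% of all windows. CTTCC within that motif can overlap the pyrimidine tract. AAGATGGC, the YY1 motif, or GCCATCTT on the other strand, was present in 6 of them (10%), against 2.749% of all windows. The 6 were a window each of Rpl22, Rpl7l1 and Rps15a, and overlapping windows of the single gene Rpl35a. Windows are thus not independent, and a gene with several starts can be counted more than once in each of these shares. These matches describe letters in the windows and are not binding sites shown by these data.

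Most markers of the labelled cell type were present. Background rows are probes with no target in the genome. Of the 10 regulatory T cell markers measured, 9 lay above the brightest background row (mean log2 signal 5.87), among them Ctla4, Ikzf2, Tnfrsf18 and Tnfrsf4. The 9 also include Cd3e and Cd4, which are not particular to regulatory T cells. Il2ra, which encodes CD25, had means of 4.82 in NOD and 5.00 in NOD.Drak2-/-, within the background range, and Foxp3 had no row named here. Of markers for other cells, 0 of 9 myeloid, 1 of 7 B cell (Cd79b), 2 of 6 CD8 or NK cell (Cd8b1 and Nkg7) and 2 of 4 erythroid or stromal (Pecam1 and Col1a1) genes lay above it. None of these markers passed the threshold between genotypes. An unadjusted limma p under 0.05 was found for 3 of the 7 B cell, 2 of the 9 myeloid, 1 of the 6 CD8 or NK cell and 0 of the 4 erythroid or stromal genes, against 9.43% of all genes. Most of these p-values came from rows in the background range. The median differences of the 4 lists, NOD.Drak2-/- minus NOD, were -0.11, 0.07, -0.05 and -0.11, and a difference in other cells was not tested. Stk17b itself ranged from 10.21 through a median of 10.55 to 10.80 in NOD and from 9.97 through 10.32 to 10.36 in NOD.Drak2-/-, a difference of -0.27 (exact permutation p = 0.0281, limma adjusted p = 0.517). Its groups overlapped, and without probe positions this row does not check the deletion. Over all genes, 4 of 19505 passed an adjusted p of 0.05. In bulk samples, fewer cells of a type and less RNA per cell cannot be told apart, and a shift shared by all genes would be removed by the scaling of arrays to a common distribution.

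No ribosomal protein gene differed between the genotypes past the threshold, and most estimates were close to 0. Of the 62, 60 had a mean signal above the brightest background row, and the means ran from 4.12 to 12.04 on the log2 scale. The exceptions were Rps4l, the paralog of the small subunit gene Rps4x, and Rpl3l, the paralog of Rpl3 known mainly from muscle. None of the 62 passed an adjusted p of 0.05 in the limma fit over all genes (0 of 62, against a background of 0.0205%), and the lowest adjusted p was 0.577. At an unadjusted p under 0.05 the count was also 0 of 62, where 9.43% of all genes lay under that value (3.74% higher and 5.69% lower in NOD.Drak2-/-). This count depends on limma, which draws the small variances of these genes towards that of all genes. With the ordinary test, which does not, the count was 3 of 62, against 8.83% of all genes. The difference, NOD.Drak2-/- minus NOD, was above 0 for 24 genes and below 0 for 38. That split depends on the scaling: it was 47 to 15 with arrays centred on the median of all genes, and 17 to 45 with arrays centred on the median of other bright genes. Among all genes 8956 differences were above 0 and 10549 below.

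The differences were small beside those of other genes. The median difference was -0.01, and that of all genes -0.02. The median absolute difference was 0.04 among the ribosomal protein genes, 0.13 among all genes and 0.10 among the 1896 other genes with the highest mean signal (the other bright genes). The other bright genes were still dimmer, with a median signal of 9.35 against 11.12 for the 62, so they are not matched to them in signal. For 49 of 62 the estimated difference was under 0.1 in either direction. The 95% interval lay wholly within 0.5 of 0 (1.41-fold) for 59 of 62, against 63.4% of all genes and 81.8% of those bright genes, and wholly within 0.3 (1.23-fold) for 40. The exceptions at 0.5 were Rpl36, Rpl39l and Rps4l, whose intervals allow larger differences.

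**Figure D1:**
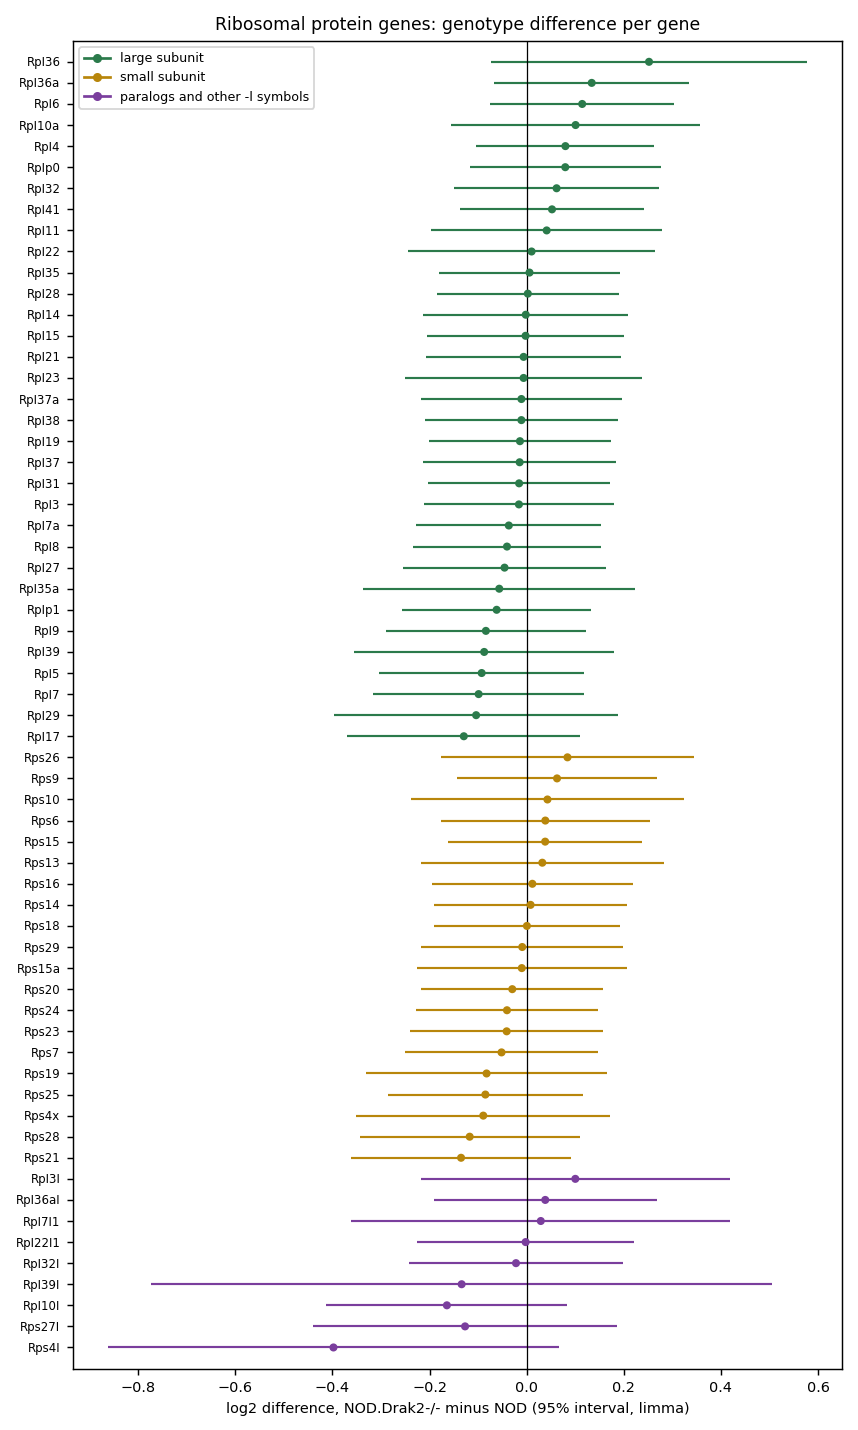
Log2 difference between genotypes for each of the 62 genes (horizontal axis, NOD.Drak2-/- minus NOD; points are limma estimates over 6 arrays per genotype, lines are 95% intervals), grouped by subunit, with paralogs and other -l symbols at the bottom. Most points lie within 0.1 of 0, and the intervals of Rps4l, Rpl39l and Rpl36 are those that reach beyond 0.5 in either direction.

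Neither subunit held a gene past the threshold. Among the 33 measured standard genes of the large subunit, 12 differences were above 0 and 21 below, with a median of -0.01 and a range from -0.13 to 0.25. Among the 20 of the small subunit, 9 were above and 11 below, with a median of -0.01 and a range from -0.14 to 0.08. The 9 genes with other symbols had 3 above and 6 below, a median of -0.02 and a range from -0.40 to 0.10.

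Rpl4, a core protein of the large subunit that reaches into the exit tunnel, was the single gene of the 62 whose groups did not overlap. Its log2 signal in NOD arrays 1 to 6 was 11.74, 11.68, 11.71, 11.65, 11.75 and 11.73. In NOD.Drak2-/- arrays 1 to 5 and 7 it was 11.78, 11.77, 11.80, 11.78, 11.76 and 11.85. Every NOD.Drak2-/- value lay above every NOD value, by a narrow margin. The means were 11.71 ± 0.04 and 11.79 ± 0.03 (SD, n = 6 each), a difference of 0.08 ± 0.09 (SE), or 1.06-fold. The two-sided exact permutation p was 0.00216, the smallest that 6 against 6 arrays allow, while the limma adjusted p was 0.779. The limma standard error is larger than the gene's own spread because limma draws each gene's variance towards that of all genes. Groups failed to overlap for 0.513% of all genes, and for 0.179% with NOD.Drak2-/- higher.

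Rpl6, a large subunit protein at the outer surface of the ribosome, ran from 11.58 through a median of 11.66 to 11.71 in NOD and from 11.63 through 11.79 to 11.83 in NOD.Drak2-/-. The groups overlapped through NOD.Drak2-/- array 4, the lowest of its genotype, and 5 of 6 values lay above the NOD mean. The difference was 0.11 ± 0.09 (SE; exact permutation p = 0.013, limma adjusted p = 0.694). Rpl36a, a large subunit protein near the site where spent transfer RNA leaves, ran from 10.25 through 10.49 to 10.53 in NOD and from 10.50 through 10.57 to 10.61 in NOD.Drak2-/-. Here 6 of 6 NOD.Drak2-/- values lay above the NOD mean, and the ranges still overlapped. The difference was 0.13 (95% interval -0.07 to 0.33; exact permutation p = 0.0108, limma adjusted p = 0.661). Rpl4, Rpl6 and Rpl36a were the 3 of 62 with an exact permutation p under 0.05, unadjusted, against 9.13% of all genes.

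Rpl36, another large subunit protein, had the largest positive difference. Its NOD values were 8.05, 8.41, 8.31, 8.57, 8.41 and 8.73, and its NOD.Drak2-/- values were 9.16, 8.86, 8.47, 8.30, 8.75 and 8.45. The highest values came from NOD.Drak2-/- arrays 1 and 2, while arrays 3, 4 and 7 lay within the NOD range. The difference was 0.25 (95% interval -0.07 to 0.58; exact permutation p = 0.149, limma adjusted p = 0.611), and 0.15 without NOD.Drak2-/- array 1.

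**Figure D2:**
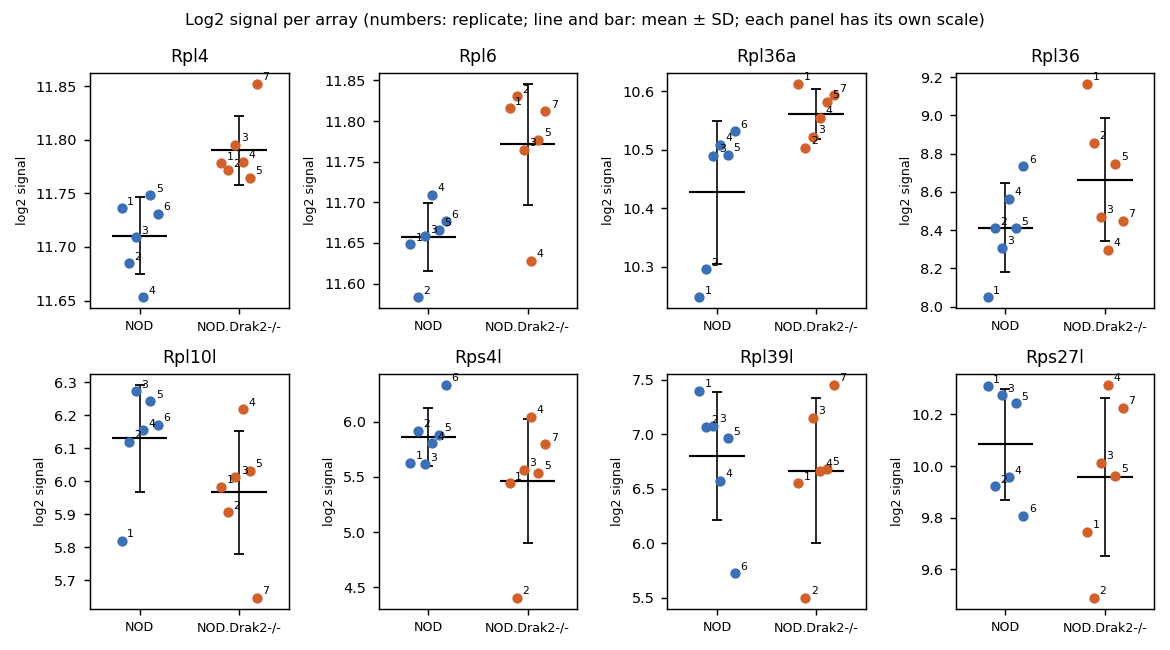
Log2 signal (vertical axis, a separate scale in each panel) of 8 genes in the 6 NOD and 6 NOD.Drak2-/- arrays; points are arrays with their replicate number, and lines with bars are mean ± SD. The groups are apart for Rpl4 and overlap for the other 7, and the Rps4l and Rpl39l panels show NOD.Drak2-/- array 2 lowest, at 4.40 and 5.50.

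Of the stalk, the flexible arm of the large subunit that recruits the factors driving translation, Rplp0 and Rplp1 were measured. Rplp0, the anchor of the stalk, ran from 9.31 through 9.45 to 9.47 in NOD and from 9.33 through 9.51 to 9.61 in NOD.Drak2-/-. Rplp1, a stalk tip protein with a flexible tail, averaged 12.07 ± 0.05 in NOD and lay between 11.89 and 12.13 in NOD.Drak2-/- (SD, n = 6). Both pairs of ranges overlapped, with differences of 0.08 (95% interval -0.12 to 0.28) for Rplp0 and -0.06 (95% interval -0.26 to 0.13) for Rplp1.

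Rpl5 and Rpl11 form, with 5S ribosomal RNA, the particle known to bind Mdm2 and stabilise p53 when ribosome assembly is disturbed. Rpl5 ran from 11.66 through 11.79 to 11.86 in NOD and from 11.51 through 11.67 to 11.85 in NOD.Drak2-/-, a difference of -0.09 (95% interval -0.30 to 0.12). Rpl11 differed by 0.04 (95% interval -0.20 to 0.28). Rps6, the small subunit protein phosphorylated by S6 kinase downstream of mTORC1, differed by 0.04 (95% interval -0.18 to 0.25). Each of these ranges overlapped between genotypes, and the messenger RNA level says nothing of phosphorylation.

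Of 7 listed proteins around the exit of the tunnel, 5 were measured, 1 with a difference above 0 and 4 below, with Rpl17 at -0.13 (limma adjusted p = 0.726) and Rpl39 at -0.09 (limma adjusted p = 0.842) the lowest p-values. Of 13 listed proteins of the small subunit head, 9 were measured, 4 above and 5 below, with Rps28 at -0.12 (limma adjusted p = 0.734) and Rps25 at -0.09 (limma adjusted p = 0.785) the lowest p-values. Of 11 genes mutated in Diamond-Blackfan anaemia, an inherited failure of red cell production, 9 were measured, 3 above and 6 below, among them Rps19 at -0.08 (limma adjusted p = 0.839). No member of these lists passed the threshold (0 of 5, 0 of 9 and 0 of 9). Rps21 at -0.14 (limma adjusted p = 0.696) was the standard gene with the lowest estimate, running from 10.73 through 10.92 to 11.06 in NOD and from 10.55 through 10.76 to 10.97 in NOD.Drak2-/-.

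The 9 genes with other symbols had a median SD within genotype of 0.26, against 0.10 for the 53 standard genes, and their groups overlapped in each case. Rps4l, in the background range of signal, had NOD values of 5.63, 5.92, 5.61, 5.80, 5.88 and 6.33 and NOD.Drak2-/- values of 5.44, 4.40, 5.57, 6.04, 5.54 and 5.80. NOD.Drak2-/- array 2 lay 1.06 below its genotype mean. The difference was -0.40 (95% interval -0.86 to 0.07; exact permutation p = 0.126, limma adjusted p = 0.577), and -0.19 without that array. Its partner Rps4x differed by -0.09 (95% interval -0.35 to 0.17), and by -0.03 without NOD.Drak2-/- array 2 or without NOD array 3.

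Rpl39l, a paralog of Rpl39 best known from the testis, had NOD values of 7.40, 7.07, 7.08, 6.57, 6.96 and 5.73 and NOD.Drak2-/- values of 6.55, 5.50, 7.15, 6.67, 6.69 and 7.46. Each genotype held 1 low array, NOD 6 and NOD.Drak2-/- 2. The difference was -0.13 (95% interval -0.77 to 0.51; limma adjusted p = 0.903), and it was 0.10 without NOD.Drak2-/- array 2 and -0.35 without NOD array 6. Rps27l, a paralog of Rps27 that is a known target of p53, had NOD values of 10.31, 9.92, 10.27, 9.96, 10.24 and 9.81 and NOD.Drak2-/- values of 9.74, 9.49, 10.01, 10.31, 9.96 and 10.23. Its difference was -0.13 (95% interval -0.44 to 0.19; exact permutation p = 0.439), and -0.03 without NOD.Drak2-/- array 2.

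Rpl10l, a retrogene copy of Rpl10 used in male germ cells, ran from 5.82 to 6.27 in NOD (mean 6.13 ± 0.16) and from 5.65 to 6.22 in NOD.Drak2-/- (5.97 ± 0.19; SD, n = 6 each), a difference of -0.16 (95% interval -0.41 to 0.08). Rpl22l1 and Rpl22, a pair known to regulate each other in T cell development, differed by -0.00 (95% interval -0.23 to 0.22) and 0.01 (95% interval -0.24 to 0.26). Rpl36al, the partner of Rpl36a, differed by 0.04, Rpl7l1 by 0.03 and Rpl32l by -0.02. Their intervals ran from -0.19 to 0.27, from -0.36 to 0.42 and from -0.24 to 0.20. For the pair Rpl7 and Rpl7l1 the value of Rpl7 was -0.10, and Rpl3, the partner of Rpl3l, differed by -0.02. Rpl3l itself lay in the background range, from 3.76 to 4.70 over the 12 arrays, and differed by 0.10 (95% interval -0.22 to 0.42). The signs of the small values of Rpl3, Rpl22, Rpl22l1, Rpl32l, Rpl7l1 and Rplp1 turned under another scaling of the arrays.

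The ribosomal protein genes were steadier between mice than most genes. The median SD within genotype was 0.11 on the log2 scale, against 0.25 for all genes and 0.19 for the other bright genes. The SD was below the all-gene median for 56 of 62 and below that of the other bright genes for 51. The range over all 12 arrays ran from 0.14 to 1.96 with a median of 0.36, and it stayed under 0.5 for 42 genes. The smallest SDs belonged to Rpl4 (0.034), Rpl35 (0.051), Rpl19 (0.052) and Rps24 (0.052). The largest belonged to Rpl39l (0.63), Rps4l (0.44), Rpl7l1 (0.36) and Rpl36 (0.28), the 4 genes whose range exceeded 1. The part of the high signal of these rows in their small spread was not tested.

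**Figure D3:**
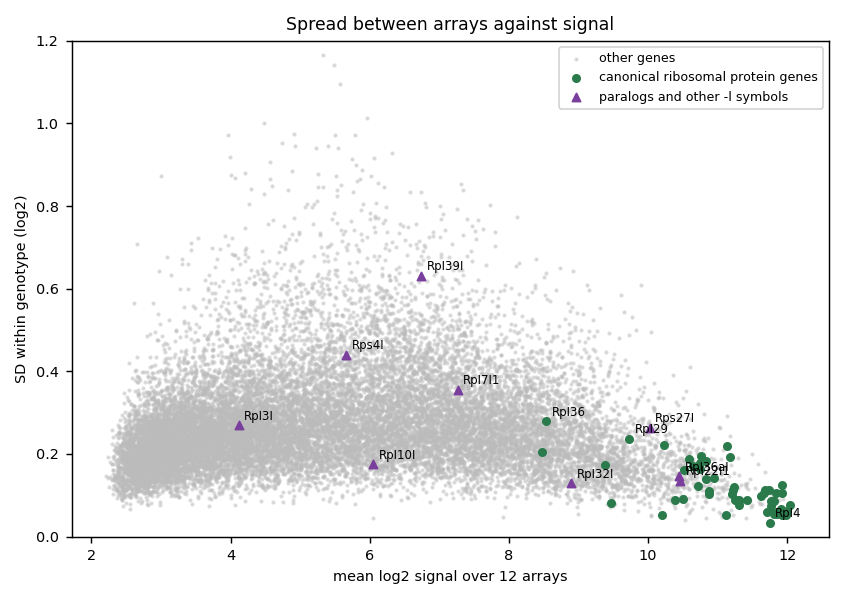
SD within genotype (vertical axis, log2) against mean log2 signal over 12 arrays (horizontal axis) for the ribosomal protein genes and all other measured genes (grey). The standard genes (green) lie low and to the right, with a median SD of 0.11 over all 62, and Rpl39l (0.63) and Rps4l (0.44) lie highest among the paralogs (triangles).

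What spread there was ran partly in common across the arrays. With each gene set to its own genotype mean, the mean correlation over pairs of genes across the 12 arrays was 0.20 for the 62, 0.04 for the other bright genes and 0.01 for all genes. It was 0.31 among small subunit standard genes and 0.16 among those of the large subunit. These values are descriptions over arrays that share their processing, and no p is given.

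NOD.Drak2-/- array 2 and, to a smaller extent, NOD array 2 lay on the low side. On NOD.Drak2-/- array 2, 53 of 62 genes lay below their genotype mean, 31 of them by more than 0.1, and 22 of 62 had their lowest value of all 12 arrays. Rpl39l (-1.17), Rps4l (-1.06) and Rpl7l1 (-0.88) deviated most. On NOD array 2, 44 of 62 lay below their genotype mean and 13 had their lowest value of the 12 arrays, and its median signal over the 62 was the lowest, at 10.98. NOD.Drak2-/- array 3 lay on the high side, with 51 of 62 genes above their genotype mean. On NOD.Drak2-/- array 2 the brightest background row was at 6.77, the highest of the 12 (5.51 to 6.52 on the others), and the mean of the 7 B cell markers was 5.52, also the highest (4.75 to 5.35 on the others). Its mean of regulatory T cell markers was the lowest, at 8.95 (8.999 to 9.27 on the others). Its mean of stress and dissociation genes, 7.92, was exceeded on NOD.Drak2-/- array 1 alone (7.96). The array weight, limma's estimate of how precise an array is from its scatter over all genes, was 0.51, the lowest of the 12, and that of NOD array 2 was 0.62, the next lowest. NOD array 3 had the next lowest mean of regulatory T cell markers, with 40 of 62 genes above their genotype mean. NOD.Drak2-/- array 3, on the high side, had the next highest mean of B cell markers (5.35). The part of these measures in the low values of NOD.Drak2-/- array 2 and NOD array 2 was not tested. Without NOD.Drak2-/- array 2, the median difference of the 62 genes was 0.0045, with 32 differences above 0 and 30 below. Without NOD array 2 it was -0.02, with 19 above and 43 below. In both cases 0 of 62 genes passed the threshold.

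**Figure D4:**
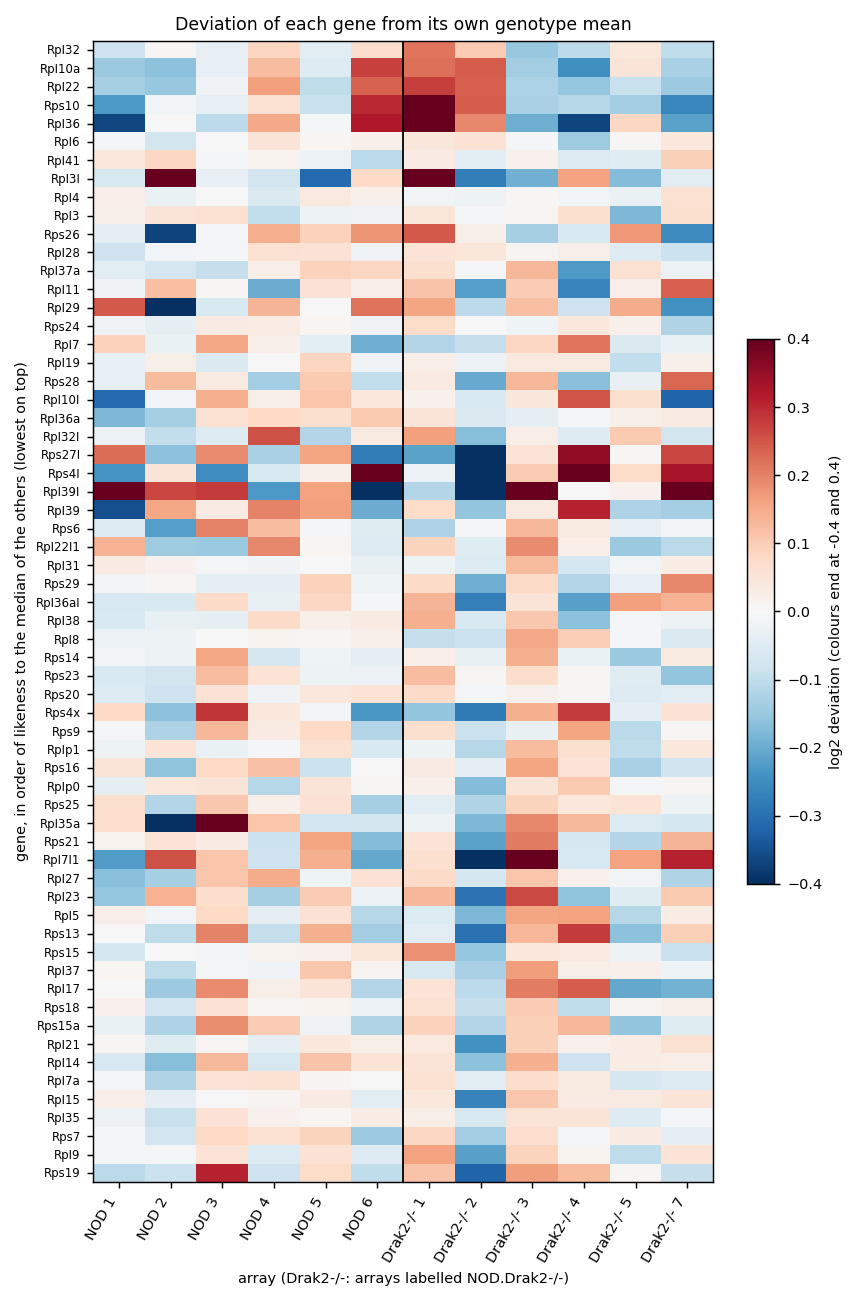
Deviation of each of the 62 genes (rows) from its own genotype mean on each array (columns), in log2 from blue (low) to red (high), with colours ending at -0.4 and 0.4 and genes in order of their correlation with the median of the others. NOD.Drak2-/- array 2 is low for 53 genes and array 3 high for 51, and the 6 genes on top run differently.

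Of the 62 genes, 56 correlated positively with the median of the others, and 6 negatively: Rpl6, Rpl10a, Rpl22, Rpl32, Rpl36 and Rps10. These 6 were picked out after their values were seen, so no test is given. Among themselves they correlated positively in all 15 pairs, from 0.37 to 0.95 with a mean of 0.78. Rpl32 and Rpl10a are large subunit proteins, and Rps10 sits in the small subunit head near the path of the message. The mean deviation of the 6 in NOD arrays 1 to 6 was -0.16, -0.07, -0.04, 0.11, -0.05 and 0.20. In NOD.Drak2-/- arrays 1 to 5 and 7 it was 0.28, 0.18, -0.12, -0.19, -0.01 and -0.14. NOD.Drak2-/- array 1 and NOD array 6 deviated most upwards; deviations sum to 0 within a genotype, so they say nothing of a difference between genotypes. The 6 are not sharply set apart: Rps26, outside them, had a correlation of 0.67 to their mean. Rpl6 had 0.58 to the mean of the rest of the 6. Rps27l ran the other way, with a correlation of -0.84 to the mean of the 6.

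Measures of array and sample moved with the mean of the 6 genes, and the GC measure also with some genes outside the 6. The difference between background rows of high GC (18 or more G and C bases) and low GC (10 or fewer) ran from 2.75 to 3.29, and within genotype its Pearson r with the mean of the 6 over 12 arrays was 0.75 (Spearman's rho 0.76), and 0.66 over 10 arrays without the 2 farthest. The mean of 12 stress and dissociation genes such as Fos, Jun and Hspa1a ran from 7.50 to 7.83 in NOD and from 7.33 to 7.96 in NOD.Drak2-/-. Its r with the 6 was 0.86 (rho 0.78), and 0.74 over 10 arrays without the 2 farthest. For the mean of the other 56 genes, r was -0.33 with the GC difference and -0.31 with the stress genes. Single genes outside the 6 reached r with the GC difference of 0.64 (Rpl28) upwards, and -0.86 (Rps27l) and -0.75 (Rps4x) downwards. Rpl6, one of the 6, had an r of 0.33 with it. The 2 measures also ran together, with r = 0.84, so their parts cannot be told apart here, and the part of either in the pattern was not tested. With the GC difference as a covariate, Rpl36 differed by 0.38 (limma adjusted p = 0.261) and Rps27l by -0.26 (limma adjusted p = 0.351).

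**Figure D5:**
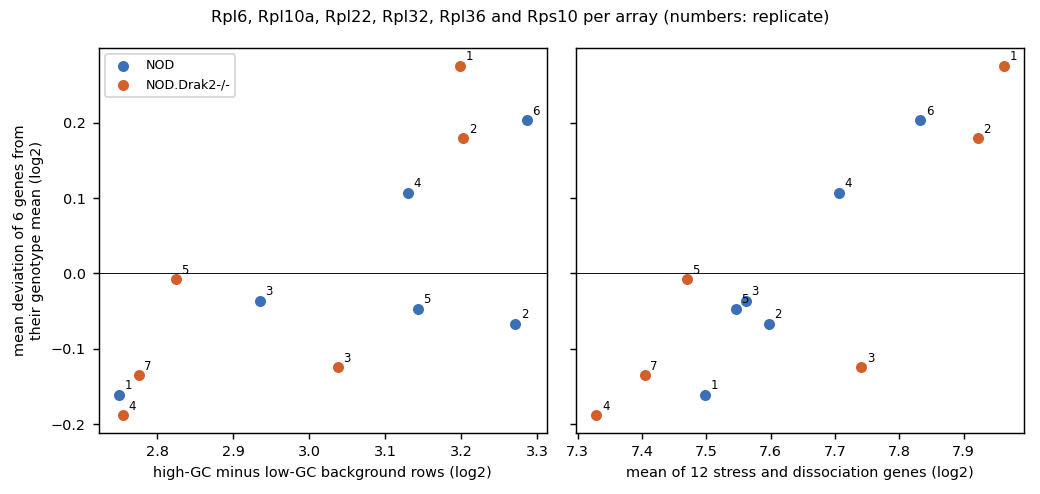
Mean deviation of Rpl6, Rpl10a, Rpl22, Rpl32, Rpl36 and Rps10 from their genotype means (vertical axis, log2) against the GC difference of the background rows (left) and the mean of 12 stress and dissociation genes (right), 1 point per array with its replicate number. Values are centred within each genotype, and the points rise with both measures (r of 0.75 and 0.86 within genotype).

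No gene of the lists around the ribosome passed the threshold, against 0.0205% of all genes. Of 4 measured ribosomal protein genes outside the symbol pattern, Rps27rt differed by 0.07, Fau by 0.06, Rps3a1 by -0.06 and Rpsa by -0.03, and none passed the threshold. Of 17 listed genes that carry a TOP tract but encode no ribosomal protein, 15 were measured, with 7 above 0, 8 below, a median of -0.01 and 0 past the threshold. The lowest p-values there were those of Eef2, the factor that moves the ribosome along (0.20, limma adjusted p = 0.624), and Eif4b, a helper of the initiation helicase (0.15, limma adjusted p = 0.687).

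Of 35 listed initiation factors, 28 were measured, with 16 above 0, 12 below and 0 past the threshold; Eif2b2 (0.44, limma adjusted p = 0.504) and Eif4g2 (0.52, limma adjusted p = 0.506) had the lowest p-values. All 10 listed elongation and termination factors were measured, with 4 above 0, 6 below and 0 past the threshold, led by Eef1e1 (0.21, limma adjusted p = 0.612). Of 70 ribosome assembly genes, 67 were measured, with 38 above 0, 29 below and 0 past the threshold. Nat10, which acetylates ribosomal RNA, was at 0.24 (limma adjusted p = 0.523), and Ddx49, a helicase, at -0.36 (limma adjusted p = 0.528).

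Of 18 listed genes of RNA polymerase I, which transcribes ribosomal RNA, 14 were measured, with 12 above 0, 2 below, a median of 0.06 and 0 past the threshold. Polr1a, its largest subunit, was at 0.45 (limma adjusted p = 0.535) and Taf1a at 0.28 (limma adjusted p = 0.641). Of 18 genes of mTORC1 signalling and Myc, 15 were measured, with 10 above 0, 5 below, a median of 0.07 and 0 past the threshold. Tsc1, an inhibitor of mTORC1, was at 0.34 (limma adjusted p = 0.543) and Larp1, the protein that binds TOP messages, at 0.21 (limma adjusted p = 0.566). For comparison, 8956 differences were above 0 and 10549 below among all genes. The splits of these lists were not examined under another scaling of the arrays, which turned the split of the 62.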

How the data were processed

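Values were the authors' deposited log2 signals, 29129 rows on 12 one-colour arrays, of which 22206 were transcript clusters. The submitters' processing notes name oligo and RMA, which corrects background, scales arrays to a common distribution and summarises probes; no version is stated. Per the labels' protocols, 125 ng of RNA per mouse was labelled. A row took its gene from the platform annotation (19572 rows with 1 symbol), and the brightest row per gene was kept, leaving 19505 genes with no filter. The labels gave the groups. The genotypes were compared with limma 3.58.1 under R 4.3.3 (lmFit, eBayes, no covariate), with Benjamini-Hochberg adjustment over all genes and a threshold of 0.05. The step was tested on simulated data. Single genes also had an exact permutation test, two-sided, over 924 regroupings (scipy 1.17.1 and numpy 2.4.6 were used). The list of 80 standard genes was added after the values were seen.

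The members and lists were chosen with earlier results of these data known. Named genes were those with the 6 smallest p-values in each direction, groups that do not overlap, paralogs and their partners, stalk and 5S particle genes, Rps6, the 4 largest and 4 smallest SDs, genes in the background range, the 2 lowest p-values of each other list, and genes outside the symbol pattern; the 6 that ran against the others were added after their values were seen. Array number limits the precision.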

Additional observations from a re-analysis of the deposited data

Results flagged for a closer look

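A sample far from the others of its genotype was found in 7 of 66 groups tested (32 named genes and the median of the 62, in 2 genotypes), where chance alone gives about 1 in 20. The groups share arrays, and some of the genes were named for their SD or p-values, so the 7 cannot be weighed against that rate. Rpl10l was low in NOD array 1 at 5.82. Rpl3 was low in NOD.Drak2-/- array 5 at 11.12. Rpl4 was high in NOD.Drak2-/- array 7 at 11.85, and its groups lie apart without that array too. Rpl6 was low in NOD.Drak2-/- array 4 at 11.63. Rpl7l1 at 6.40 and Rps4l at 4.40 were both low in NOD.Drak2-/- array 2, the array on which most of the 62 genes were low. The median log2 signal of the 62 genes was low in NOD array 2 at 10.98.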

How the results depend on the processing

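The count of ribosomal protein genes past the threshold was 0 under each alternative, and their lowest adjusted p ran from 0.261 to 0.730. The count at an unadjusted p under 0.05 was 1 of 62 with a trended, robust variance (Rpl6), against 9.13% of all genes. With the ordinary test it was 3 (Rpl36a, Rpl4 and Rpl6), against 8.83%. With the GC covariate it was 2 (Rpl36 and Rps27l), against 13.3%. It was 0 to 1 when leaving out an array (Rps4l without NOD.Drak2-/- array 4, at -0.51, against 13.012% of all genes). Each count was a smaller share of the 62 than the share of all genes beside it. Over all genes, 4 calls became 1 with bright-gene centring, 0 with the ordinary test, 7 with the GC covariate and 1 to 2 without an array. The median difference was 0.055 with median centring (that of all genes then 0.046) and -0.031 to 0.0045 without an array. With replicate number as a block 0 genes passed. Over all genes, same-numbered arrays 1 to 5 correlated at -0.18, 0.09, 0.06, -0.17 and 0.03 in their deviations from the genotype mean. Over the 62 genes the values were -0.47, -0.38, 0.41, -0.09 and 0.22. Over all genes, none of these NOD arrays correlated best with the NOD.Drak2-/- array of its own number. Pairing by number was thus not seen, but low correlations cannot exclude it. Signs turned for small differences, and the cause was not tested: with median centring Rpl19 (0.052), Rpl22l1 (0.063), Rpl3 (0.050), Rpl32l (0.044), Rplp1 (0.0038) and Rps24 (0.025); with bright-gene centring Rpl22 (-0.020), Rpl35 (-0.025) and Rpl7l1 (-0.0013); with the replicate block Rpl11 (-0.0014), Rpl22l1 (0.0093) and Rpl7l1 (-0.073); with the GC covariate Rpl7l1 (-0.016); with array weights Rpl22 (-0.046), Rpl39l (0.047) and Rps10 (-0.0019). Without an array, ranges that crossed 0 were Rpl11 -0.0064 to 0.094, Rpl19 -0.026 to 0.0057, Rpl22 -0.045 to 0.057, Rpl22l1 -0.040 to 0.036, Rpl3 -0.036 to 0.020, Rpl32l -0.055 to 0.029, Rpl35 -0.012 to 0.018, Rpl39l -0.35 to 0.10, Rpl3l -0.0052 to 0.18, Rpl7l1 -0.053 to 0.20, Rps10 -0.037 to 0.10 and Rps6 -0.0055 to 0.078.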
